A study of Rattus norvegicus with 28 samples.

Results

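The genes described here are the rat genes whose symbol is Zfp followed by a digit, the rodent naming for zinc finger proteins. They were taken by symbol alone from the RNA table. The rule uses no values, but it was chosen with earlier results of these data known. The table lists 11383 genes, and 213 of its rows matched, under 212 symbols because Zfp617 stands on 2 rows. The RNA came from cardiomyocytes of adult rats aged 6 to 8 months, cultured for 48 hours. The 3 control libraries came from cells given a null adenovirus (null), and the 3 treated libraries from cells given an adenovirus that encodes a short hairpin RNA against desmin (shDesmin). Desmin is the muscle intermediate filament protein. All 6 cultures therefore carried adenovirus, and the control virus of the RNA experiment is labelled as null, not as a scrambled hairpin. Lamina-associated domains (LADs), the stretches of the genome found at the nuclear lamina by Lamin B ChIP, were deposited for control cells only. Those are the scrambled control cells of the ChIP experiment, not the null cells of the RNA experiment. The labels do not say whether the replicates came from separate animals, so p-values measure the spread between these libraries.

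Most proteins with such symbols carry C2H2 zinc fingers, small folds held by a zinc ion that read a few DNA bases each, so that a row of fingers reads a longer site. In human and mouse many of them also carry a KRAB domain, which recruits the co-repressor Trim28 and, through it, the histone methyltransferase Setdb1, so that the bound DNA gains the repressive H3K9me3 mark; a large share of this family binds transposable elements. The genes often lie side by side in clusters that arose by tandem duplication. A minority has unrelated roles: Zfp36 and Zfp36l1 are CCCH proteins that bind AU-rich mRNA and recruit deadenylases, and others act as ubiquitin ligases, spindle proteins or ribosome factors.

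Promoter windows of 4 members are shown because these genes had among the largest changes in either direction and because each window holds a different one of the motifs that were searched for. Each window runs from 250 bases before to 50 bases after a start site, 300 bases in all, and comes from RefSeq on the build GRCr8, while the gene positions given further on are on rn6. Capitals mark the motif: TATAAA (the TATA box) in Zfp36l1, CCGGAAGT (bound by ETS factors) in Zfp655, GGGCGG or its complement CCGCCC (bound by SP and KLF factors) in Zfp775, and TGACGTCA (the cyclic AMP response element) in Zfp426. Zfp36l1 and Zfp655 rose, and Zfp775 and Zfp426 fell. The windows lie at chr6:104668641-104668940 on the minus strand, chr12:14488240-14488539 on the minus strand, chr4:78887780-78888079 on the plus strand and chr8:27305008-27305307 on the minus strand.
Zfp36l1: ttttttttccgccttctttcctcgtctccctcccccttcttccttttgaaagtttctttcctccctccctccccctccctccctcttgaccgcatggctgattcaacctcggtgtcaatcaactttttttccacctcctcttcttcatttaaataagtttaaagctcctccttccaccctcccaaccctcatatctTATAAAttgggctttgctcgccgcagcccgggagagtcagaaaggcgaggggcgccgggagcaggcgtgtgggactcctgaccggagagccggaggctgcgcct
Zfp655: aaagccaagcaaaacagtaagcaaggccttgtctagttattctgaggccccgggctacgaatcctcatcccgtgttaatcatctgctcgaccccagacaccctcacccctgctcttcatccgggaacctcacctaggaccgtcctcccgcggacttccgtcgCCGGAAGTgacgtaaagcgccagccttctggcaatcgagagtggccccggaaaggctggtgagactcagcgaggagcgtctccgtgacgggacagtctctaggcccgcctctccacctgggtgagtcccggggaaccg
Zfp775: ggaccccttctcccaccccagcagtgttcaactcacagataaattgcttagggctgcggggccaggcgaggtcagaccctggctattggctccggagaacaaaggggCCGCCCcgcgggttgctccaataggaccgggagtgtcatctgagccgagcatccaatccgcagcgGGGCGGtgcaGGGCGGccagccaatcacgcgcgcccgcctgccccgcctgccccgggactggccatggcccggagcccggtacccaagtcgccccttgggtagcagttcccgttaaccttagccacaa
Zfp426: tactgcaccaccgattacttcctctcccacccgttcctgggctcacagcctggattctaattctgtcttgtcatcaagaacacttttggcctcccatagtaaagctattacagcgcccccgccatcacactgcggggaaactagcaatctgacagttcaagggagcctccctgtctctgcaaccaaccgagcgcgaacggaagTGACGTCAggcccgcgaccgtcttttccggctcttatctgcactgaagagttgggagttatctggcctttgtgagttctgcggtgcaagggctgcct

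A promoter window was found for 172 of the 213 genes, and genes with several start sites gave several windows, 214 in all. A set of 8 motifs was searched on both strands and set beside 33469 windows of 27457 genes of the genome. Those genes include ones not listed in the RNA data, whereas every Zfp gene here was listed. The sets therefore differ in more than their symbols. GGGCGG stood in 50.5% of Zfp windows against 33.1% of all windows, CCGGAAGT in 11.7% against 3.81%, and ACTACAA, part of the ZNF143 site, in 9.35% against 3.36%. TATAAA stood in 8.88% against 14.2%. AAGATGG, the YY1 site, stood in 9.81% against 7.01%, the NRF1 site in 2.8% against 0.852%, and TGACGTCA in 2.34% against 1.83%. For the CArG box bound by SRF, only a fixed form of 10 letters was searched for. That form stood in 0 of the 214 Zfp windows and in 0.0329% of all windows. Other forms of the box were not searched for, so these values do not show how often CArG boxes occur. The median GC content was 57.3% in Zfp windows and 51.7% in all windows. Among Zfp genes, CCGGAAGT stood in 7 of 20 windows of genes that rose, in 11 of 101 windows of genes that fell and in 7 of 82 windows of tested genes that did neither. ACTACAA stood in 5, 5 and 10 of the same windows, and GGGCGG in 7, 58 and 38. These shares are descriptions of the letters in the windows, and windows of the same gene overlap in part.

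Desmin itself, Des, stood at 12.57, 12.54 and 12.60 log2 CPM (CPM is the read count scaled to library size by the authors) in the null libraries and at 9.10, 9.13 and 9.32 in the shDesmin libraries. It was 10.5-fold lower in shDesmin cells (log2 fold change -3.39, SE 0.10, limma adjusted p = 7.3e-09). An exact two-sided permutation test gave p = 0.1, the smallest that 3 against 3 libraries allow.

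The libraries held 8724543 to 10908458 reads over the listed genes, of which 15110 to 32001 fell on Zfp genes. Mitochondrial transcripts took 24.7 to 34.5% of reads in null and 35.0 to 39.1% in shDesmin libraries, and the authors' scale factors were 1.17 to 1.42 in null and 0.73 to 0.83 in shDesmin libraries. Of 10 cardiomyocyte markers 9 were listed and all 9 rose, with a summed level of 20844 to 24844 CPM in null and 72149 to 83821 CPM in shDesmin libraries. Of 8 fibroblast markers 3 were listed and rose, from 2.95 to 9.81 CPM in null to 15.4 to 24.7 CPM in shDesmin, with Pdgfra, Tcf21, Postn, Lum and Col1a2 not among the listed genes. Of 7 endothelial markers 6 were listed, 3 higher and 1 lower (113 to 191 against 228 to 342 CPM), with Pecam1 not among them. Of 7 smooth muscle and pericyte markers 6 were listed, 4 higher and 1 lower (277 to 430 against 533 to 866 CPM). Of 7 macrophage and lymphocyte markers only Cd68 and Csf1r were listed, together at 16.1 to 17.1 CPM in null and 2.87 to 3.77 CPM in shDesmin libraries. Csf1r fell (log2 fold change -3.17), while Cd68 had a log2 fold change of 0.19 with an adjusted p of 0.69. These markers and the mitochondrial share moved with the groups, and their part in the Zfp changes was not tested; in such bulk RNA, fewer cells of a type and less RNA per cell cannot be told apart.

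Zfp genes were mostly lower in shDesmin cells. Of the 213 rows, 201 passed the filter of more than 0 log2 CPM in at least 3 libraries. Of these, 17 rose and 94 fell, and 90 did not pass the adjusted p threshold of 0.05; 121 had an unadjusted p under 0.05. That is 8.46% higher and 46.8% lower, beside 27.5% higher, 31.4% lower and 58.9% called in either direction over all 11033 genes tested. Changes of at least 2-fold that passed the test numbered 6 higher and 60 lower, beside 10.6% and 14.3% of all genes tested. The median log2 fold change of tested Zfp genes was -0.59, with a middle range from -1.17 to -0.07 and extremes of -3.03 and 2.49, and the median of all genes tested was -0.04. The log2 fold change was below 0 for 154 and above 0 for 47 of the 201.

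The 12 rows that did not pass the filter are Zfp39, Zfp53, Zfp54, Zfp113, Zfp334, Zfp472, Zfp473, Zfp521, Zfp780b-ps1, Zfp949, Zfp956 and a row of Zfp617, with mean levels from -1.44 to 0.24 log2 CPM. With no filter, all 213 rows gave 17 higher and 102 lower and a median of -0.64, beside 26.6% higher and 31.2% lower of all 11383 genes. The 3 null and the 3 shDesmin values did not overlap for 20 of the 213 rows that were higher in shDesmin and for 112 that were lower, beside 29% and 35.2% of all listed genes. Of the tested Zfp genes, 153 stood above 0 log2 CPM in all 6 libraries, 14 in all null and no shDesmin library, and 2 in all shDesmin and no null library. The 14 and the 2 passed the filter only through the group in which they are high. Where called, they are counted in the falls and rises given above. The same counts were not made over all genes, so nothing is read from them about the family. Just inside the threshold were Zfp964 (adjusted p = 0.0424), Zfp664 (0.0427) and Zfp428 (0.0446), and just outside were Zfp51 (0.0501), Zfp41 (0.0510) and Zfp641 (0.0532). The smallest change that passed was that of Zfp384, with a log2 fold change of -0.28.

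**Figure D1:**
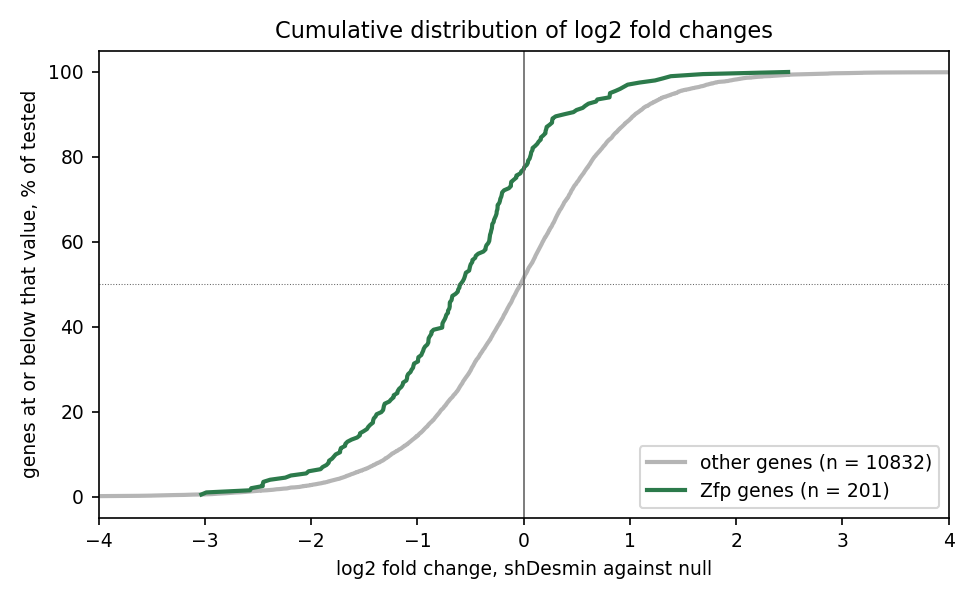
Cumulative distribution of log2 fold changes (x axis, shDesmin against null) as the percentage of tested genes at or below each value (y axis), for Zfp genes and for all other tested genes. The Zfp curve lies to the left, with a median of -0.59 against -0.03 for the others.

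Falls were spread over all levels of expression, and 9 of the 17 rises lay in the highest of 4 level classes. When tested Zfp genes were divided into 4 classes of nearly equal size by mean level, with bounds at -0.92, 1.05, 2.29, 3.47 and 7.27 log2 CPM, the share that fell was 43.1%, 46%, 54% and 44% from the lowest to the highest class. Other genes within the same bounds had 25.5%, 28.8%, 38.7% and 32.7% lower. The share of Zfp genes that rose was 3.92%, 2%, 10% and 18%, against 16.7%, 18.9%, 20.8% and 30.4% of other genes. The median log2 fold change of Zfp genes went from -0.94 in the lowest class through -0.70 and -0.61 to -0.28 in the highest, while that of other genes was -0.13, -0.15, -0.25 and -0.01. These levels are CPM and are not corrected for transcript length.

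**Figure D2:**
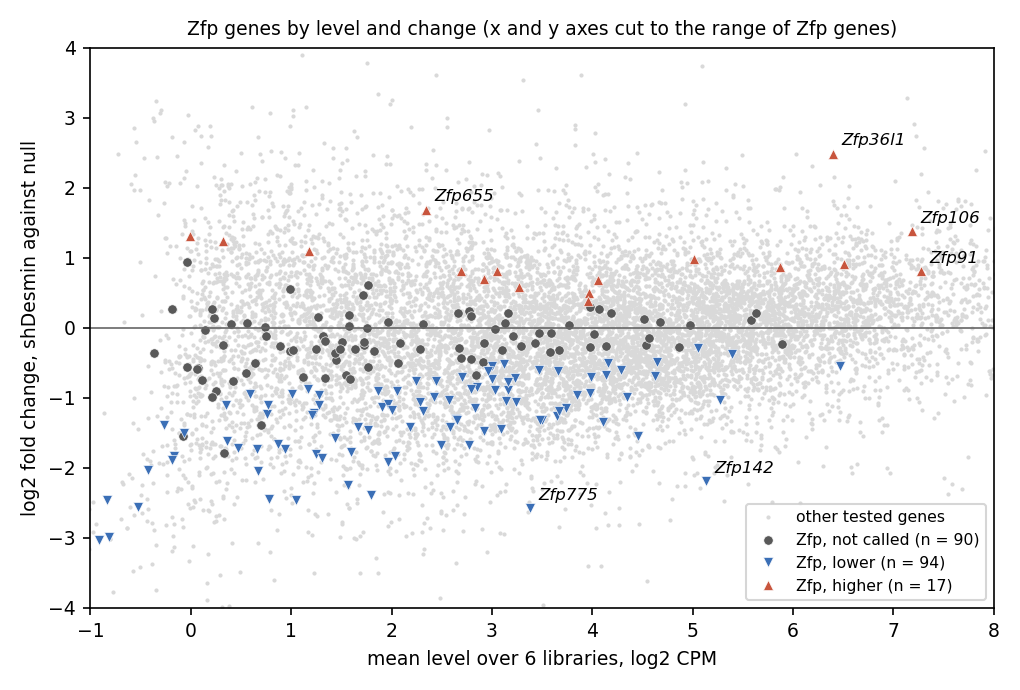
Log2 fold change (y axis, shDesmin against null) by mean level over the 6 libraries (x axis, log2 CPM), with 1 point per gene; grey points are other tested genes and coloured points are Zfp genes that were higher, lower or not called. The 94 lower Zfp genes are spread over the whole range of levels, whereas 9 of the 17 higher ones lie in the highest of the 4 level classes.

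The summed level of the family overlapped between the groups, whereas its median level did not. The 213 rows together held 2465, 2378 and 2431 CPM in the null and 2422, 2268 and 2297 CPM in the shDesmin libraries, that is 2425 ± 43.4 against 2329 ± 81.6 CPM (SD, n = 3 each), and the lowest null and highest shDesmin values overlap. Zfp91, Zfp106 and Zfp706, the 3 members with the highest mean level, rose from 279 ± 50.2 to 566 ± 42.5 CPM in sum. All other rows went from 2146 ± 20.9 to 1763 ± 42.1 CPM, with every shDesmin library below every null library. The median Zfp level in a library was 2.71, 2.59 and 2.68 log2 CPM in null and 2.02, 1.87 and 1.94 in shDesmin libraries, while the median of all tested genes was 3.98, 3.95 and 3.94 against 3.77, 3.75 and 3.81. As a share of all reads, with no scaling by the authors, Zfp genes took 0.348%, 0.300% and 0.283% in null and 0.201%, 0.165% and 0.179% in shDesmin libraries. Leaving out mitochondrial transcripts, the shares were 0.462%, 0.433% and 0.432% against 0.309%, 0.271% and 0.293%, without overlap.

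The largest rise belonged to Zfp36l1 (ENSRNOG00000058646, rn6 chr6:103308045-103313074), the CCCH protein that speeds the decay of AU-rich mRNAs. Its level was 5.41, 5.07 and 4.97 log2 CPM in null and 7.40, 7.73 and 7.79 in shDesmin libraries, from 371 to 553 reads in null and 1354 to 1697 reads in shDesmin. All shDesmin libraries stood well above all null libraries, and the gene was 5.61-fold higher (log2 fold change 2.49, SE 0.14, adjusted p = 1.7e-07). Its relative Zfp36 (tristetraprolin, rn6 chr1:85380095-85382607) went from 4.58, 4.71 and 4.29 to 5.43, 5.55 and 5.54 log2 CPM and was 1.97-fold higher (log2 fold change 0.98, SE 0.13, adjusted p = 6.7e-05). The groups did not overlap for either gene. Both were named as Zfp36 genes, but both are also among the largest rises, which were listed only where the groups did not overlap. Zfp36l2 is not among the listed genes.

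Because Zfp36 proteins act on mRNAs and on the deadenylation machinery, a list of 28 genes of reported targets, CCR4-NOT subunits, decapping factors and regulators was read alongside. Of the 21 listed, all tested, 5 rose (23.8%) and 7 fell (33.3%), beside 27.5% and 31.4% of all genes tested, with a median log2 fold change of 0.13. These shares are near those of all genes. Vegfa, the vascular growth factor and an AU-rich target, stood at 8.46, 8.77 and 8.76 log2 CPM in null and 6.91, 6.76 and 6.77 in shDesmin libraries, 3.61-fold lower (adjusted p = 1.8e-07). Ccl20, a chemokine, went the other way, from 3.94, 4.37 and 4.25 to 6.42, 6.77 and 6.23 log2 CPM, 4.87-fold higher (adjusted p = 6.1e-07). Mapkapk2, the kinase that phosphorylates tristetraprolin, was 1.93-fold higher (log2 fold change 0.95, adjusted p = 3.3e-06).

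Several other members that rose have roles outside the KRAB type. Zfp106 (rn6 chr3:112283112-112320762), an RNA-binding protein needed for the upkeep of muscle and motor neurons in mice, stood at 7.18, 6.10 and 6.19 log2 CPM in null and 8.14, 7.73 and 7.76 in shDesmin libraries. The first null library lay well above the other two, yet below every shDesmin library, and the gene was 2.61-fold higher (log2 fold change 1.38, SE 0.23, adjusted p = 0.00041). Zfp91 (rn6 chr1:229602499-229639187), a ubiquitin ligase of the noncanonical NF-kB pathway, went from 6.98, 6.76 and 6.87 to 7.74, 7.63 and 7.66 log2 CPM, 1.75-fold higher (log2 fold change 0.81, SE 0.09, adjusted p = 2.3e-05). Zfp706, which in mouse embryonic stem cells acts on self-renewal, went from 6.00, 5.97 and 6.17 to 6.90, 7.08 and 6.90 log2 CPM, 1.88-fold higher (adjusted p = 1.8e-05). Zfp207, whose human counterpart binds spindle microtubules and the checkpoint protein Bub3, went from 5.61, 5.37 and 5.35 to 6.40, 6.31 and 6.21 log2 CPM, 1.82-fold higher (adjusted p = 4.7e-05). In each of the 4 genes the groups stayed apart. All 4 are among the largest rises, which were listed only where the groups did not overlap. Their separation was therefore set by that choice and is not a separate result.

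Among transcription factors, Zfp281, known from mouse embryonic stem cells, went from 2.78, 2.19 and 1.90 to 3.10, 3.05 and 3.16 log2 CPM, 1.75-fold higher (adjusted p = 0.011). Zfp148, a factor that binds GC-rich promoters, was at 3.20, 2.79 and 2.97 in null and 3.56, 3.51 and 3.62 in shDesmin libraries, 1.49-fold higher (log2 fold change 0.58, adjusted p = 0.011), a direction that turned to -0.13 on the log2 scale when libraries were scaled by their totals. Without the second null library the adjusted p of Zfp148 was 0.051, within a range from 0.00099 to 0.87 over the alternatives. Zfp655, a KRAB protein that binds the signalling protein Vav in mice, had the second largest fold, 3.22-fold (rn6 chr12:11127754-11144754, 1.18, 1.72 and 1.60 against 3.38, 2.82 and 3.35 log2 CPM, log2 fold change 1.69, SE 0.24, adjusted p = 0.00012). Zfp189 was 1.76-fold higher (2.68, 2.61 and 2.64 against 3.40, 3.65 and 3.32 log2 CPM, adjusted p = 0.0017). Zfp786 was 2.13-fold higher (0.72, 0.89 and 0.28 against 1.04, 2.18 and 1.94 log2 CPM, adjusted p = 0.021), from only 15 to 30 reads a library. Its adjusted p was 0.069 without the third null, 0.085 without the second shDesmin and 0.067 without the third shDesmin library, and ran from 0.0058 to 0.37 over the alternatives.

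**Figure D3:**
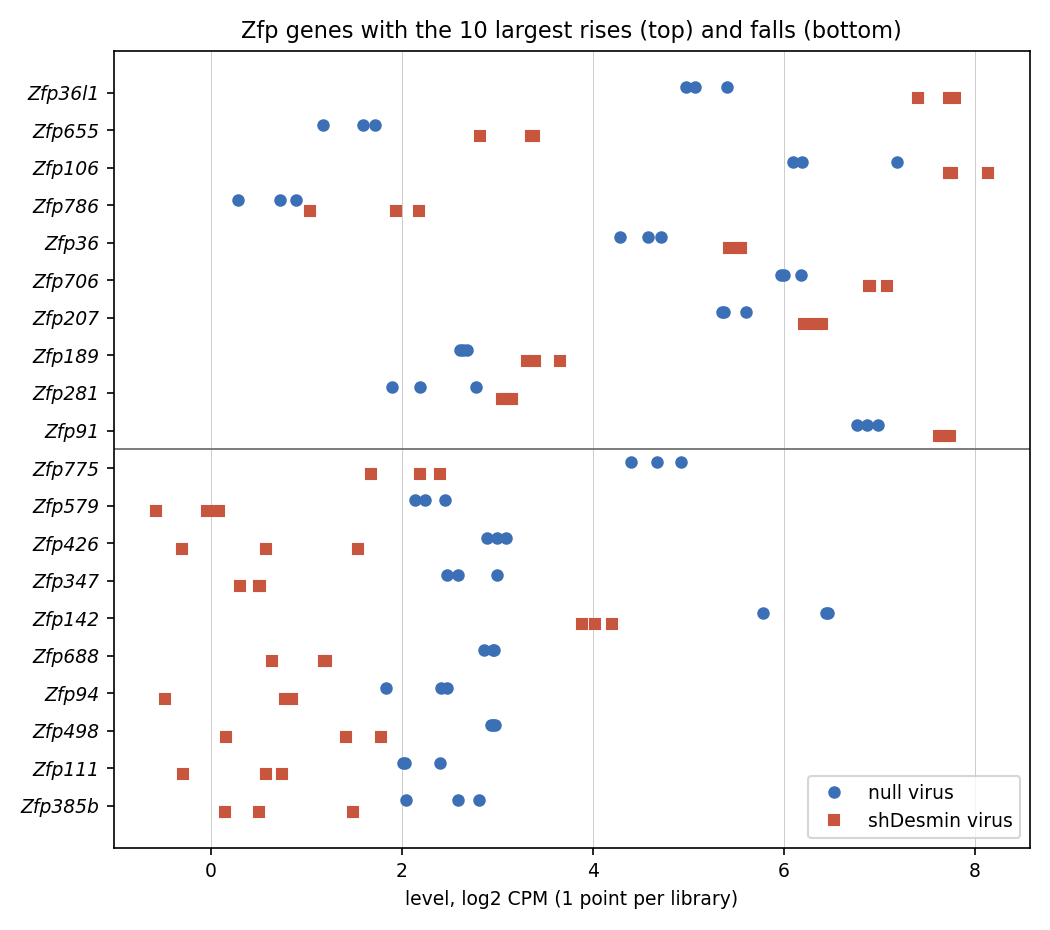
Level of each gene in every library (x axis, log2 CPM, 1 point per library; circles null, squares shDesmin) for the Zfp genes with the 10 largest rises and the 10 largest falls among those with a mean of at least 1 log2 CPM and no overlap between groups. The largest rise is that of Zfp36l1, from 5.15 to 7.64 on average, and the largest fall that of Zfp775, from 4.66 to 2.09.

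The largest fall in this set belonged to Zfp775 (ENSRNOG00000008362, rn6 chr4:78240385-78258545). It stood at 4.40, 4.67 and 4.92 log2 CPM in null and 2.19, 1.68 and 2.40 in shDesmin libraries, from 275 to 385 reads in null and 21 to 40 reads in shDesmin. The gene was 5.96-fold lower (log2 fold change -2.58, SE 0.21, adjusted p = 2.3e-06), and every shDesmin value lay far under the lowest null value. Zfp142 (rn6 chr9:81844138-81868086) had more reads, 714 to 1124 in null and 99 to 147 in shDesmin libraries, and went from 5.78, 6.44 and 6.46 to 4.20, 3.89 and 4.02 log2 CPM, 4.57-fold lower (SE 0.18, adjusted p = 1.9e-06). The interval of Zfp142 overlaps that of Plcd4, and the sources used here do not say whether reads were counted by strand.

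Zfp579 went from 2.14, 2.45 and 2.25 to 0.08, -0.58 and -0.03 log2 CPM, 5.49-fold lower (adjusted p = 5e-05). Zfp426 (rn6 chr8:21477329-21492801) went from 2.89, 3.09 and 2.99 to -0.30, 1.54 and 0.58 log2 CPM, 5.23-fold lower (SE 0.39, adjusted p = 0.00031). Its null values lay close together, while its shDesmin values, from 6, 19 and 11 reads, were widely spread. Zfp347 was 4.74-fold lower (2.48, 2.59 and 2.99 against 0.52, 0.50 and 0.31 log2 CPM, adjusted p = 2.8e-05). Zfp688 was 3.76-fold lower, Zfp94 3.62-fold, Zfp498 3.57-fold, Zfp111 3.49-fold and Zfp385b 3.41-fold, with adjusted p-values of 4.9e-05, 0.0016, 0.0011, 0.00077 and 0.0015; the interval of Zfp111 overlaps that of AC118165.1. Zfp385b, related to a p53 partner, stood at 2.81, 2.59 and 2.04 in null and 1.49, 0.50 and 0.15 in shDesmin libraries. RefSeq gives Zfp94 the symbol Zfp61 and Zfp498 the symbol Zscan25, and 14 of the 195 members with an Entrez match carry another symbol there. At lower levels, and chosen after their values were seen, Zfp563 had 16 to 23 reads in null and 0 to 3 in shDesmin libraries, and Zfp780b 15 to 23 and 0 to 4. Both passed the filter only through the null libraries, and their fitted folds rest on too few reads, with 0.5 added, to be given as sizes.

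Of a list of 32 Zfp symbols with a reported role, 29 were listed and 28 tested. Of these 5 rose (17.9%) and 7 fell (25%), both smaller shares than the 27.5% and 31.4% of all genes tested, with a median log2 fold change of -0.17. The remaining members, leaving out also Zfp36 and Zfp36l1, numbered 171 tested, with 10 higher (5.85%), 87 lower (50.9%) and a median of -0.69. This difference between the 2 sets was not tested. The sets were not divided by KRAB domain, which was not read for any member. The 5 that rose are Zfp91, Zfp106, Zfp148, Zfp207 and Zfp281, given above.

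The 7 that fell act in varied processes. Zfp598, a ubiquitin ligase that marks collided ribosomes, stood at 6.64, 6.75 and 6.83 log2 CPM in null and 6.34, 6.14 and 6.09 in shDesmin libraries, 1.46-fold lower (adjusted p = 0.00074). Zfp593, a factor of large ribosomal subunit assembly, was 1.40-fold lower (4.75, 4.82 and 5.09 against 4.48, 4.40 and 4.33 log2 CPM, adjusted p = 0.0068, and 0.069 after median centring within a range reaching down to 3.6e-05). Zfp830, needed for genome integrity in mouse embryos, was 2.22-fold lower (3.46, 3.61 and 3.13 against 2.68, 2.04 and 2.04 log2 CPM, adjusted p = 0.0012). Zfp346, a binder of double-stranded RNA, was 2.06-fold lower (3.61, 3.66 and 3.73 against 2.26, 2.73 and 2.88 log2 CPM, adjusted p = 0.0007). Zfp131, a BTB-domain factor, was 1.94-fold lower (adjusted p = 0.00042), and Zfp451, a SUMO ligase, 1.62-fold lower (adjusted p = 0.001). The seventh is Zfp385b. In all 7 the groups did not overlap, beside 35.2% of all listed genes that were lower without overlap. The 7 were named because they passed the test in the same libraries, so this was in large part set by that choice.

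The co-repressor machinery that KRAB proteins use was read from a list of 30 genes, of which 27 were tested. Of these 5 rose (18.5%) and 10 fell (37.0%), beside 27.5% and 31.4% of all genes tested, and the median log2 fold change of -0.04 was that of all genes, so the list as a whole lay near the background. Setdb1, the H3K9 methyltransferase, stood at 4.66, 4.68 and 4.83 log2 CPM in null and 3.25, 3.47 and 3.16 in shDesmin libraries, 2.69-fold lower (SE 0.14, adjusted p = 7.9e-06). Smarcad1, a chromatin remodeller that binds Trim28, was 2.63-fold lower (3.69, 3.89 and 3.61 against 2.66, 1.93 and 2.43 log2 CPM, adjusted p = 0.00018). Sumo2, whose product modifies Trim28, was 2.15-fold higher (3.83, 3.79 and 3.98 against 4.89, 5.08 and 4.93 log2 CPM, adjusted p = 2.2e-05). Trim28 itself, added after its values were seen, stood at 6.91, 6.93 and 6.87 in null and 6.76, 6.71 and 6.75 in shDesmin libraries, a log2 fold change of -0.16 with an adjusted p of 0.11. The count of 5 higher fell to 2 without the third null library and to 3 without the first or the third shDesmin library.

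Many members lie side by side. By the rule of another listed Zfp gene within 500 kb on rn6, 103 of the 213 genes fell into 31 groups, and 48 of all members lie on chromosome 1. Of the 97 tested genes with a neighbour, 5 rose (5.15%) and 51 fell (52.6%), with a median log2 fold change of -0.73. Of the 104 without, 12 rose (11.5%) and 43 fell (41.3%), with a median of -0.32. Over all genes tested, 27.5% rose and 31.4% fell. Of 63 adjacent pairs of tested genes, 22 fell together, 0 rose together, 3 moved in opposite directions, 24 had 1 changed member and 14 had none. Since 51 of these genes fell and 5 rose, nothing is read from the number of pairs that fell together. The median level was lower in genes with a neighbour, 1.64 against 2.84 log2 CPM, and the difference between the 2 sets was not tested.

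The largest group lies at rn6 chr4:77495663-78258545, with 9 members over 763 kb. Zfp786 at its left end rose, Zfp282, Zfp212, Zfp862 and Zfp775 fell, Zfp777, Zfp746 and Zfp467 did not pass the test, and Zfp956 was not tested. A group of 6 at rn6 chr1:198690794-199330997 held 5 that fell: Zfp764 (2.38-fold), Zfp688 (3.76-fold), Zfp629 (2.40-fold), Zfp668 (4.13-fold) and Zfp646 (2.50-fold lower). Zfp668 and, in the chromosome 4 group, Zfp862 passed the filter only through the null libraries. Zfp771, at the edge of the chromosome 1 group, had a log2 fold change of 0.21 with an adjusted p of 0.12. The other group of 6, at rn6 chr1:65590404-66254989, held 2 that fell and 1 that rose. Over all genes tested, 31.4% fell and 27.5% rose. The interval given for Zfp629 overlaps 7 other listed genes, so that its reads are uncertain, and RefSeq names it Zfp689. In all, 14 Zfp intervals overlap another listed gene, and 9 of these fell; without them 187 tested genes gave 17 higher and 85 lower. Reads of near-identical paralogues within such groups can be shared, and how the authors' counting treated them is not given in the sources used here.

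**Figure D4:**
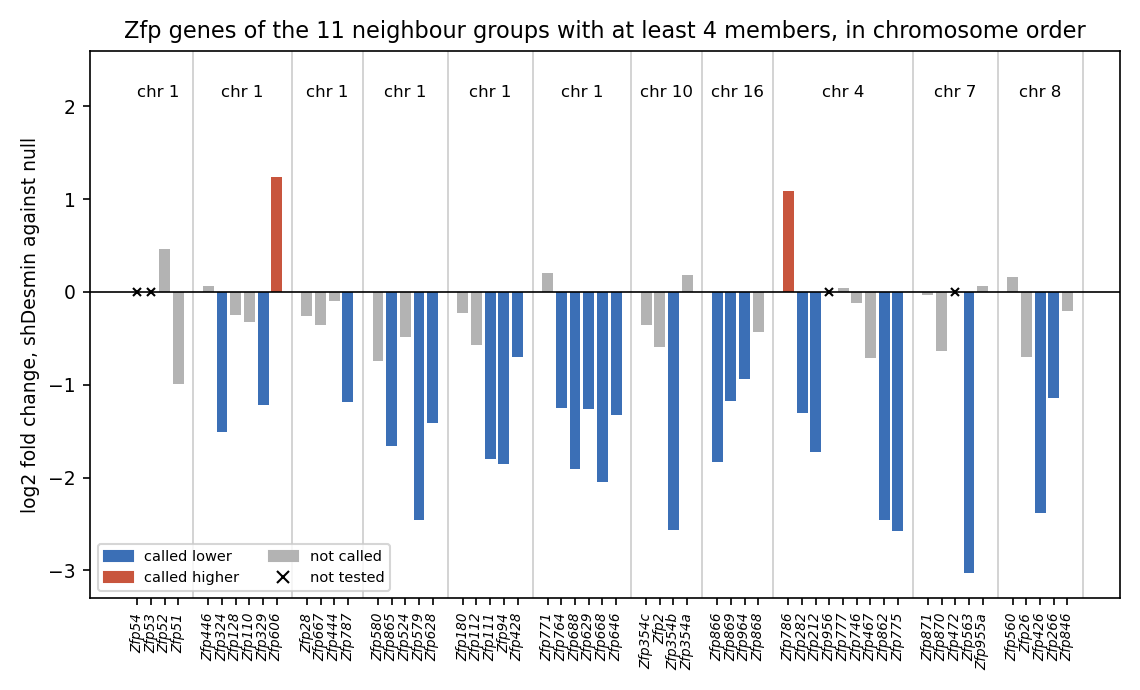
Log2 fold change (y axis, shDesmin against null) of the Zfp genes in the 11 neighbour groups with at least 4 members, in order along each chromosome; bars are blue for lower, red for higher and grey for not called, and crosses mark genes that were not tested. In the chromosome 1 group that starts with Zfp771, 5 of 6 genes are lower. In the chromosome 1 group of 6 that starts with Zfp446, 2 genes are lower and 1 is higher. Higher genes stand alone at the edges of 2 groups (Zfp606 and Zfp786).

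Few Zfp genes lay in LADs of the scrambled control cells. Of the 213, 10 (4.69%) had at least 50% of their length in one of the 1883 domains, beside 465 of all 11383 listed genes (4.09%), and the number was also 10 when any overlap was counted. The median distance to the nearest domain was 478 kb for Zfp genes and 820 kb for all listed genes. Of the 10, 2 rose (Zfp189 and Zfp606) and 2 fell (Zfp772 and Zfp322a), with a median log2 fold change of -0.79; outside domains 15 rose and 92 fell of 191 tested, with a median of -0.57. All listed genes in domains gave 121 higher and 78 lower of 436 tested, with a median of 0.10. The domains were mapped in the scrambled control cells of the ChIP experiment, so their position in null or shDesmin cells is not covered.

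The 5 Zfp genes in LADs with the largest changes had few reads. Zfp772, Zfp606 and Zfp51 passed the filter only through the group in which each is high, so that their difference is in part set by the filter. Zfp772 went from 0.15, 0.66 and 0.46 to -1.20, -0.94 and -0.77 log2 CPM, 2.63-fold lower (adjusted p = 0.018). Zfp606 went from -0.18, -0.56 and -0.15 to 1.13, 1.11 and 0.58 log2 CPM, 2.36-fold higher (adjusted p = 0.015). Zfp322a was 1.88-fold lower (2.80, 2.19 and 2.55 against 1.72, 1.01 and 2.08 log2 CPM, adjusted p = 0.021). Zfp455 had a log2 fold change of -1.38 with an adjusted p of 0.057 and overlapping groups, and Zfp51 one of -0.99 with an adjusted p of 0.0501 and groups that did not overlap. None of the 3 calls held in every leave-one-out fit: the adjusted p reached 0.080 for Zfp772 (lost without the second or the third null library), 0.051 for Zfp606 (lost without the first shDesmin library) and 0.075 for Zfp322a (lost without the first null, the third null or the second shDesmin library). Zfp455 passed without the first null or the third shDesmin library, its adjusted p then ranging from 0.027 to 0.19 over the leave-one-out fits.

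Other zinc finger families were chosen by symbol in the same way, and their shares are read against 27.5% higher and 31.4% lower of all genes tested, with a median of -0.04. Of 33 tested Zbtb genes, whose products join fingers to a BTB domain, 3 rose (9.09%) and 14 fell (42.4%), with a median log2 fold change of -0.31. Of 10 Zscan and Zkscan genes, whose products carry a SCAN domain, 1 rose and 5 fell, with a median of -0.47. Of 17 Klf and Sp genes, which bind GC boxes, 0 rose and 5 fell (29.4%, below the share of all genes), with a median of -0.19. The 3 tested Znf genes all fell, with a median of -1.54. None of these differences from the Zfp genes was tested. The sets are not distinct families, since RefSeq gives some Zfp members such symbols, among them Zbtb14 for Zfp161 and Zkscan7 for Zfp167.

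The number of rises and falls depended on how libraries were scaled. With the authors' scaling 17 rose and 94 fell; with median centring 21 and 81, beside 36% higher and 24.5% lower of all genes; with library totals 2 (Zfp36l1 and Zfp655) and 156, beside 7.27% and 62.5%. Scaling by totals moved every log2 fold change by about -0.71, and 5 of the 17 genes that rose (Zfp68, Zfp148, Zfp407, Zfp523 and Zfp639) then had a log2 fold change below 0, with none of them called lower. The other 10 kept a log2 fold change above 0 without passing the test. All 94 genes that fell were also called lower under library totals, which that shared downward shift largely set in advance. The median of Zfp genes minus the median of all genes tested was -0.55 with the authors' scaling and, since a shift shared by all genes leaves it as it is, also with median centring and library totals; it was -0.40 after quantile normalization. The authors' deposited table gives 17 higher and 98 lower of 213, beside 26.3% and 30.9% of all genes, and 17 and 91 of these are the genes found here.

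**Figure D5:**
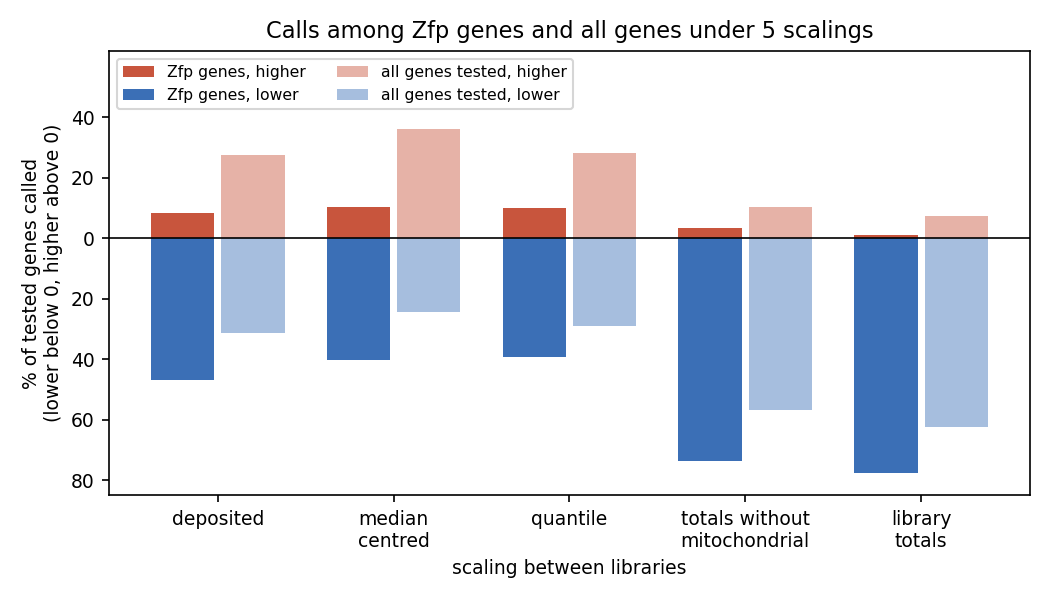
Percentage of tested genes that were higher (bars above 0) or lower (bars below 0) among Zfp genes and among all genes (y axis) under 5 scalings between libraries (x axis). In every scaling a larger share of Zfp genes than of all genes is lower and a smaller share is higher.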

How the data were processed

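RNA of adult rat cardiomyocytes was read as 75 bp single-end reads in 3 null and 3 shDesmin libraries; the series has 28 samples, of which 22 are Lamin B ChIP or input libraries that entered only through the deposited domain list. The deposited RNA table holds log2 values scaled per library by the authors. Per the submitters' processing notes, Trimmomatic 0.32, STAR 2.6.0c, featureCounts, edgeR and limma were used, with no role given, and rn6 is among the builds named. Raised to the power of 2, 100% of values of each library gave whole reads within 0.001, after 0.5 reads and a shared constant were removed, so levels here are log2 CPM with 0.5 reads added, which understates folds of genes with few reads. Where a library has 0 reads, up to 3 reads remain possible from counting error alone, which equals 0.23 to 0.45 CPM. The table of differential expression deposited by the authors gives a signed fold and a moderated t score and p-values, as named in its headers, and served only as a comparison. The deposited list of LADs holds interval starts and ends on rn6. Per the series' design text, it is a union over the replicates of the control sample, of which the labels give 3.

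Groups were compared with limma 3.58.1 under R 4.3.3, two-sided, as a linear model of group with a variance trend. It took the 11033 genes that exceeded 0 log2 CPM in 3 or more libraries, and p-values were adjusted over all of them by the Benjamini-Hochberg method. Tested on simulated data with 11033 genes, this fit found 87 of 100 genes changed by 1 log2 unit and 100 of 100 changed by 2. It also called 8 unchanged genes. No other genes changed in the simulation, and its spread between libraries was a fixed setting, not taken from these data. Recovery in the real libraries may therefore differ. Within groups, chi-square per degree of freedom between libraries was 4.94 to 36.7, above sampling noise, so each counted as 1 sample. Genes were named by a rule: Des, the Zfp36 genes, the 10 largest rises and falls with a mean of at least 1 log2 CPM and no overlap, the 3 highest levels, the role list where called, 5 genes in LADs, and up to 3 genes of each other list. The members, lists and rule were chosen with earlier results of these data known. Lists are described by counts and medians, without a set test. Promoter windows came from RefSeq (GRCr8), and motifs and figures were made with Python 3.11.15 (pandas 2.3.3, numpy 2.4.6, scipy 1.17.1, matplotlib 3.10.9). Alternatives covered the filter, the pseudocount, the scaling, the variance model, a replicate block and leaving out each library.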

Additional observations from a re-analysis of the deposited data

How the results depend on the processing

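Library totals changed counts most. Over all genes, 802 were higher and 6892 lower with totals, and 1151 and 6253 with totals without mitochondrial genes. Zfp genes gave 2 higher and 156 lower with totals and 7 and 148 without mitochondrial genes, and their median log2 fold change was -1.30 and -1.13, against -0.41 with median centring and -0.40 with quantile normalization. The co-repressor list gave 1 higher and 18 lower with totals, 1 and 16 without mitochondrial genes, and 3 higher with no variance trend. The list of Zfp36 targets gave 2 higher and 14 lower with totals, 2 higher without mitochondrial genes, and 4 lower with median centring. Zfp148 turned to -0.13 with library totals. Leaving out each library in turn gave 13 to 17 higher and 80 to 91 lower Zfp genes of 201 tested. Over all 11033 genes tested, the same fits gave 2651 to 3193 higher and 2988 to 3418 lower. In the co-repressor list, 2 to 4 genes were higher.

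Same-numbered libraries correlated at 0.13, -0.07 and -0.17 in their deviations from the group means. The labels do not say whether these libraries share a preparation, and 3 libraries a group are too few to decide it. With a replicate block, 16 Zfp genes were higher and 95 lower, of which 16 and 91 were called without it. Over all 11033 genes tested, 3092 were higher and 3491 lower with that block. Over the log2 fold changes of 38 named genes, 642 of 680 alternative values kept their direction and their side of the threshold, 27 lost the call, 10 gained it and 1 reversed. Most of these genes were named for large or called changes in the same libraries. The number of calls kept was therefore in part set by that choice. No Zfp gene changed from a higher to a lower call or back in any of the alternatives. Depth limits the genes that fell to a few reads, since 3 reads were worth up to 0.45 CPM in a library.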
